A study of Rattus norvegicus with 12 samples.

Results

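The FAS death receptor, its ligand, the adaptor and regulators that bind the receptor complex, and the caspases and scaffold downstream of it were examined as 8 genes (Fas, Faslg, Fadd, Casp8, Cflar, Apaf1, Casp9 and Casp6). They were chosen by symbol from the 13030 gene symbols on the Affymetrix rat array, which found 17 of its 31096 probe sets. Fas is listed there under its older symbol Tnfrsf6. A probe set is a group of short oligonucleotides that together report 1 transcript. MAS5 gives it a linear signal per array and a detection call of present, marginal or absent. A present call on 2 or more of the 12 arrays was required for a test, which kept 13 member probe sets and 19248 probe sets in all. The other 4 (1 of Fas, 1 of Cflar and 2 of Casp9) were present on 0 arrays.

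The cells were OLN, a rat oligodendroglial line, and every group stably expressed alpha-synuclein. Mock cells were transfected with an empty control vector and p25alpha cells with p25alpha (TPPP) in pcDNA3.1, using Fugene-6, and RNA was taken 8, 12 and 16 h later. There was 1 array per group in each of 2 experiments, hence 6 groups of 2 and 6 pairs of a p25alpha and a mock array. No group lacked alpha-synuclein, the line is a single one, and the labels give neither the share of cells that took up the plasmid nor whether the experiments used separate cultures. A p-value here therefore reflects only how far the arrays scatter, of which some may be technical, and the precision is limited by their number.

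FAS is a cell surface receptor with an intracellular death domain. Binding of FAS ligand lets it recruit the adaptor FADD, which in turn gathers and activates the initiator caspase 8, while CFLAR (also called FLIP) resembles caspase 8, binds in the same complex and limits its activation. A separate mitochondrial route uses cytochrome c, the scaffold APAF1 and the initiator caspase 9, and both routes end in executioner caspases, among which caspase 6 cuts nuclear lamins. In oligodendrocytes FAS is known as a receptor through which cell death can be triggered. Array signals report transcripts and not caspase activity, and fewer cells of a kind cannot be told apart from less RNA per cell in such bulk samples.

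The receptor and its ligand are the pair on which the results below turn, so the 250 bases before their start are shown first. They are RefSeq sequences of build GRCr8, printed 5′ to 3′ on the gene's strand. Promoters were matched by symbol for 7 of the 8 members, and Casp8 is named only. The motifs searched on both strands were TATAAA (the core promoter box), TGANTCA (AP-1), GCGNGGGCG (EGR) and the kappaB consensus. N stands for any base, so TGANTCA is a loose form of the AP-1 motif, and a stricter form was not searched. Capitals mark the matches.
Fas, chr1:241211905-241212154, plus strand: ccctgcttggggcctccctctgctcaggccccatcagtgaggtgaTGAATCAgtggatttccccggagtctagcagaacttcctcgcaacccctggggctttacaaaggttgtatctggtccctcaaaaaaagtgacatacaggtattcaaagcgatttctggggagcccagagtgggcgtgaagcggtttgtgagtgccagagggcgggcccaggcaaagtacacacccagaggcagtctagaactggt
Faslg, chr13:76695504-76695753, minus strand: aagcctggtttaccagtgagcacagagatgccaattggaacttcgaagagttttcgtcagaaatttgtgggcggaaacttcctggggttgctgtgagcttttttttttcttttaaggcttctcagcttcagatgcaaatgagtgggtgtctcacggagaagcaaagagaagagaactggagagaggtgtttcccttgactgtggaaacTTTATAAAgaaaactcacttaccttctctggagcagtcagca
The capitals in Fas match this loose AP-1 pattern with A at its open position, and 6.34% of the 33469 windows of this length hold the pattern. Those in Faslg are overlapping matches of the core promoter box on opposite strands, and 12.9% of windows hold that motif. The EGR motif was found in Apaf1 and in none of the other 6 members (4.29% of all windows), and the kappaB consensus in 0 of 7 (3.54%). A match is a description of the letters and not a site. Over the same arrays Egr1, whose protein binds the EGR motif, rose 5.05-fold in p25alpha cells (limma adjusted p = 0.00115), and Nfkbia, a well-known NF-kB target, rose 2.86-fold (adjusted p = 0.00814, and 0.470 without the experiment as a block).

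The comparison of p25alpha with mock cells asked whether transcripts of this route differ when p25alpha is added to alpha-synuclein. None of the 13 member probe sets passed the threshold, an adjusted p of 0.05, over all 3 times together or at 8, 12 or 16 h. This was limma's test with the experiment as a block, adjusted over all 19248 tested probe sets by the Benjamini-Hochberg method. Over all times the same fit called 0.239% of all tested probe sets (0.0208% without the block), so 0 of 13 is near that background. At 8, 12 and 16 h it called 0.0%, 0.0571% and 0.0571%. At an unadjusted p under 0.05 there were 2 of the 13 (Faslg and Casp6) against 14.0% of all tested probe sets, and without the block 0 of the 13 against 4.13%. At 8 h 0 of the 13 had such a p against 4.88% of all, at 12 h 1 of 13 against 9.33% and at 16 h 1 of 13 against 8.66%. Of the 13 log2 differences 7 were above and 6 below 0, with a median of 0.00 beside 0.01 over all tested probe sets. The test of whether the p25alpha effect differs between times passed for 0 of 13 and 0.0% of all, with 0 of 13 and 3.96% at an unadjusted p under 0.05. Each single value is given below with its 95% interval, since a p above the threshold does not show that a transcript was unchanged.

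**Figure D1:**
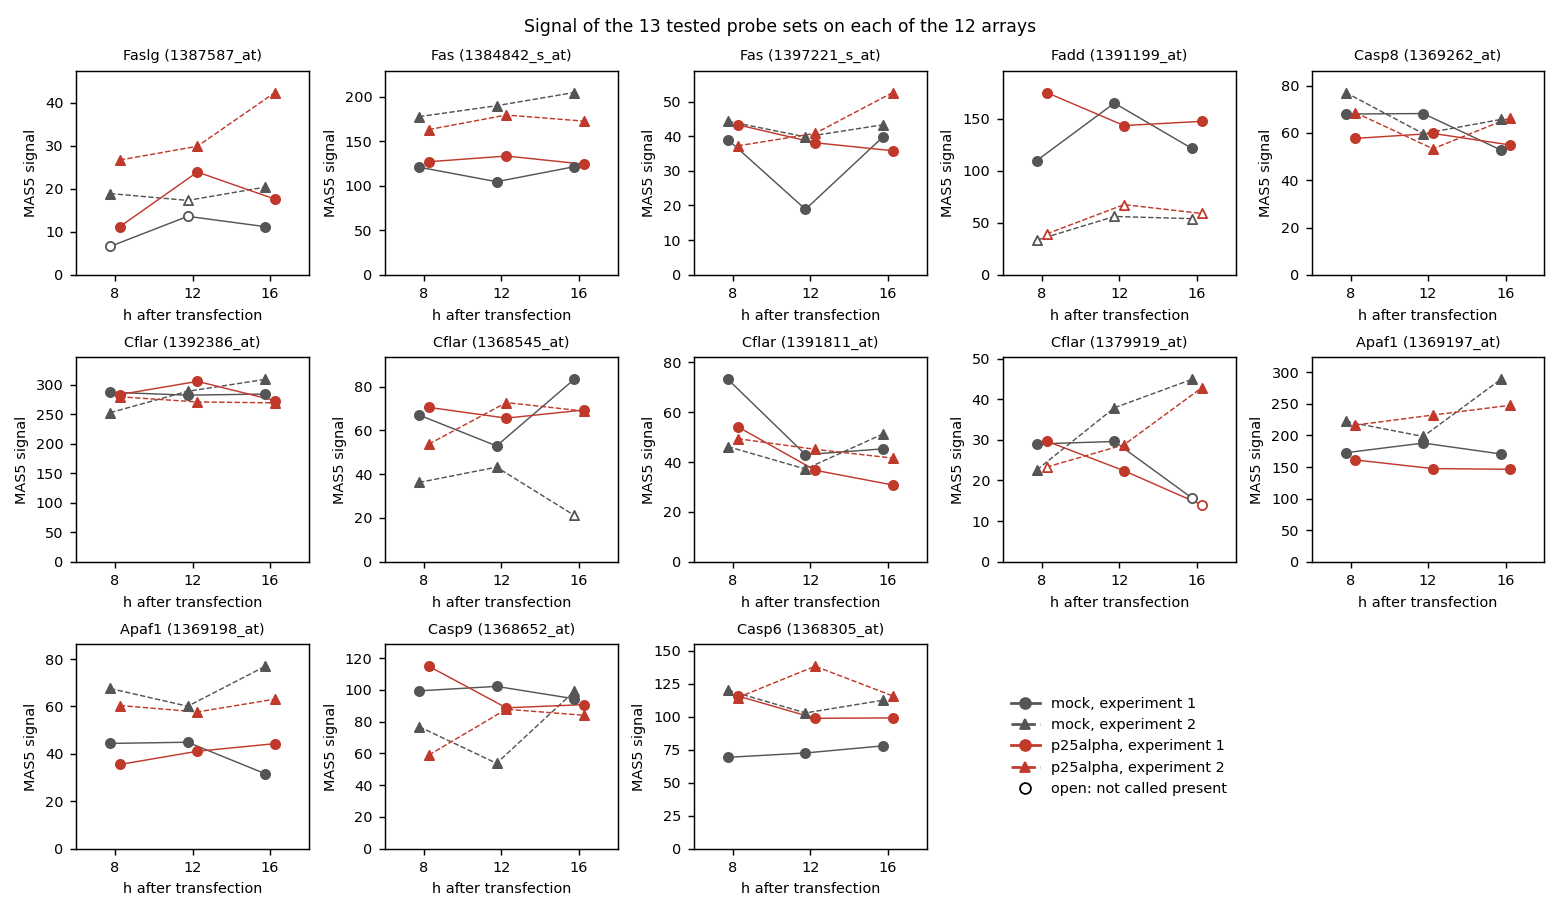
MAS5 signal (y axis, linear, from 0) of the 13 tested probe sets against hours after transfection (x axis, points moved slightly sideways) in mock (grey) and p25alpha (red) cells, with circles for experiment 1 and triangles for experiment 2, and open symbols where the call was not present. Each point is 1 array: Faslg is higher in p25alpha cells in all 6 pairs, the lone low point of the second Fas panel is the mock array at 12 h in experiment 1, and the experiments lie apart for Fadd, Apaf1 and the brighter Fas probe set.

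Faslg, the ligand, had the largest difference of the 13 and a low signal. In experiment 1 its mock signals were 6.6, 13.6 and 11.2 at 8, 12 and 16 h, and its p25alpha signals 11.2, 23.9 and 17.6. In experiment 2 the mock signals were 18.9, 17.3 and 20.4, and the p25alpha signals 26.7, 29.9 and 42.4. The p25alpha array was the higher one in 6 of 6 pairs, which held for 5.99% of all tested probe sets, but the ranges of the arms overlapped (6.6 to 20.4 against 11.2 to 42.4). Present calls were made on 3 of 6 mock arrays and 6 of 6 p25alpha arrays, so much of the mock level rests on signals called absent. Over all times the log2 difference was 0.76 ± 0.18 (SE, 95% interval 0.326 to 1.198, geometric mean signals 13.7 and 23.3), with a limma adjusted p of 0.174 in the paired fit and 0.9999 without the block. Over all alternatives its adjusted p ranged from 0.128 to 0.9999.

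The Faslg difference had the same sign at each time and in each experiment. It was 0.63 ± 0.32 (SE) at 8 h, 0.80 ± 0.32 at 12 h and 0.85 ± 0.32 at 16 h on the log2 scale, with limma adjusted p of 0.977, 0.513 and 0.535. At 12 h both mock arrays were called absent and both p25alpha arrays present. The geometric mean signals there were 15.3 and 26.7, a ratio of 1.74 that rests on mock signals called absent (log2 interval 0.05 to 1.56). Within experiment 1 the mean log2 difference was 0.74 and within experiment 2 it was 0.78, and the difference between these was 0.04 ± 0.40 (SE, limma adjusted p = 0.9999). The authors' deposited table gives signal log ratios of 0.6, 0.4 and 0.5 for the pairs of experiment 1 and of 0.1, 0.7 and 0.7 for those of experiment 2, all called no change.

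Faslg is best known from T and NK cells, and markers of those cells were read on the same arrays. All 7 had a probe set, and 6 of the 7 were present on at most 1 array. Cd3d, Cd8a, Prf1 and Nkg7 were absent on all 12. The exception was Gzmb, which encodes granzyme B. Of its 3 probe sets only 1370628_at passed the filter, with present calls on 3 arrays. Its geometric mean signals were 9.22 in mock and 17.49 in p25alpha cells. The p25alpha array was higher in 5 of 6 pairs, and the share of all tested probe sets with that count was not taken. The Gzmb log2 difference was 0.92 ± 0.38 (SE, limma adjusted p = 0.346). The summed signal of the 7 lay between 33.6 and 76.1 on mock arrays and between 46.2 and 110.9 on p25alpha arrays, and its part in the Faslg difference was not tested.

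Fas, the receptor, was read by a probe set that was present on all 12 arrays (1384842_s_at), and it did not move one way. In experiment 1 the mock signals were 120.8, 104.5 and 121.3 at 8, 12 and 16 h, and the p25alpha signals 126.9, 133.3 and 124.2. In experiment 2 the mock signals were 177.5, 189.8 and 204.6, and the p25alpha signals 163, 179.3 and 172.5. All 3 pairs of experiment 1 were higher in p25alpha cells and all 3 pairs of experiment 2 were lower. Over all times the log2 difference was 0.00 ± 0.09 (SE, 95% interval -0.21 to 0.22, limma adjusted p = 0.997). It was 0.15 within experiment 1 and -0.15 within experiment 2, and the difference between the experiments was -0.30 ± 0.16 (SE, limma adjusted p = 0.9999). That test passed for 0.0% of all tested probe sets, and 4.0% had an unadjusted p under 0.05, which Fas did not. Among all tested probe sets 2.32% showed such opposite pairs.

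A second Fas probe set (1397221_s_at), also present on all 12 arrays, was dimmer and contained 1 array that stood apart. The mock signals were 39, 18.9 and 39.8 in experiment 1 and 44.3, 39.8 and 43.3 in experiment 2. The p25alpha signals were 43.3, 38.1 and 35.8 in experiment 1 and 37.2, 40.8 and 52.6 in experiment 2. Thus 11 arrays lay between 35.8 and 52.6, and only the mock array at 12 h of experiment 1 lay below them. At 12 h the log2 difference was 0.52 ± 0.29 (SE, limma adjusted p = 0.622), made of 1.01 in experiment 1 and 0.04 in experiment 2. Without that mock array it was 0.06. The authors' deposited table calls this pair of experiment 1 an increase (signal log ratio 0.9), the only increase among 18 calls for Fas. The same table also gives a signal log ratio of 0.9, called a marginal increase, for mock cells from 12 to 16 h in experiment 1, which is the same low array seen from the other side.

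Over all times this probe set measured 0.18 ± 0.17 (SE, 95% interval -0.22 to 0.57, limma adjusted p = 0.663), and 0.02 without the low mock array. At 8 and 16 h it did not pass either, at -0.05 and 0.06. The brighter Fas probe set was also lowest on the same mock array (104.5), and its 12 h difference of 0.13 was -0.04 without it. Deviations of the Fas probe sets from the mean of their experiment correlated at 0.605 over the 12 arrays (Pearson, a description of arrays that share experiment and labelling). The third Fas probe set (1369900_at), designed on the full-length transcript, ranged from 1.5 to 22.1 and was called absent throughout. No level can be read from it. The Fas values above thus rest on the other probe sets, both designed on expressed sequence tags (partial cDNA reads) per the deposited annotation.

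**Figure D2:**
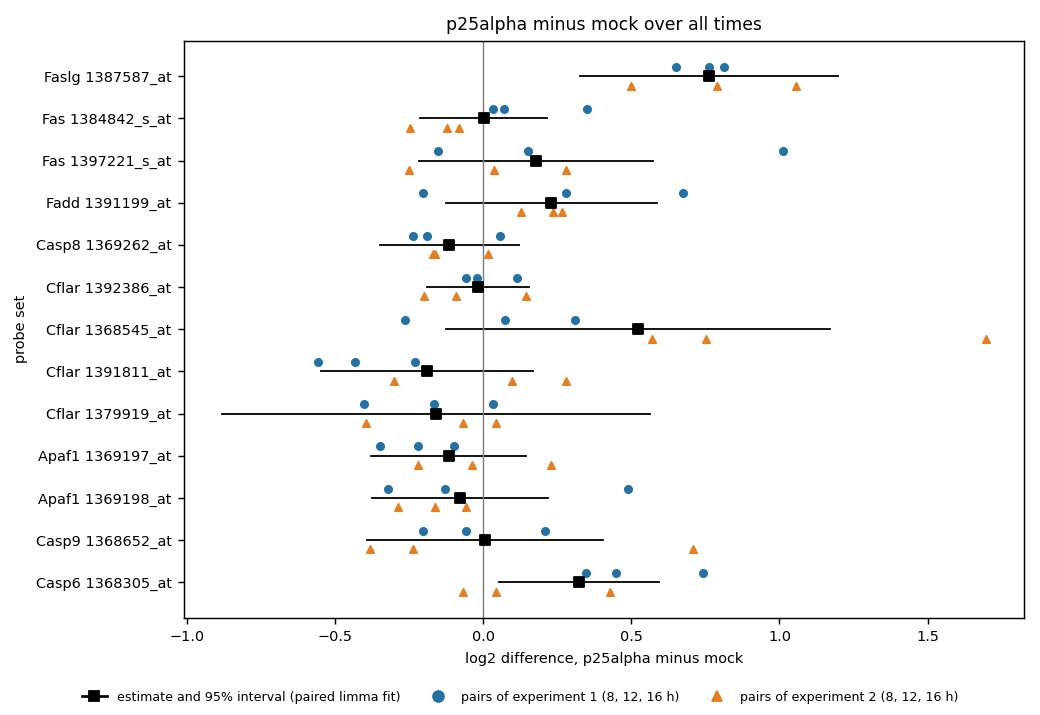
Log2 difference between p25alpha and mock cells (x axis) for each tested probe set (y axis), with black squares for the paired limma estimate over all times, bars for its 95% interval, blue circles for the pairs of experiment 1 and orange triangles for those of experiment 2. The Fas 1384842_s_at estimate of 0.00 lies between pairs that are all above 0 in experiment 1 and all below 0 in experiment 2, whereas all 6 Faslg pairs are above 0.

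Fadd, the adaptor between the receptor and caspase 8, was called present only in experiment 1. In experiment 1 its mock signals were 109.9, 165.1 and 121.5 at 8, 12 and 16 h and its p25alpha signals 175.3, 143.5 and 147.6, all called present. In experiment 2 the mock signals were 33.4, 56.1 and 54 and the p25alpha signals 39.3, 67.5 and 59, with 0 present calls and 1 marginal. Every array of experiment 2 lay below every array of experiment 1, and for 28.9% of all tested probe sets the experiments did not overlap. The Fadd probe set passed the filter only through experiment 1, so this is no test of a difference. The p25alpha array was higher in 5 of 6 pairs, at 0.23 ± 0.15 over all times (SE, log2, 95% interval -0.12 to 0.59, limma adjusted p = 0.535), and the values of experiment 2 in this mean rest on signals not called present.

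Casp8, the initiator caspase of the receptor route, was present on all 12 arrays and covered a narrow range. Its signals lay between 52.8 and 77.1 (median 66.85) on mock arrays and between 53.3 and 68.6 (median 58.75) on p25alpha arrays. The arms overlapped, with 4 of 6 pairs lower and 2 higher in p25alpha cells. Over all times the log2 difference was -0.11 ± 0.10 (SE, 95% interval -0.35 to 0.12, limma adjusted p = 0.642). The lower pairs were those at 8 and 12 h (-0.20 and -0.18), and both pairs at 16 h were slightly above 0 (0.04).

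Cflar, the caspase 8-like regulator, had 4 tested probe sets, which did not move together. The brightest (1392386_at) lay between 253 and 309.4 on the mock arrays and between 269.6 and 306 on the p25alpha arrays, at -0.02 ± 0.07 (SE, log2, 95% interval -0.19 to 0.16). This was the narrowest interval of the 13 probe sets. The probe set designed on the full-length transcript (1368545_at) read higher in p25alpha cells in 5 of 6 pairs, at 0.52 ± 0.27 (SE, 95% interval -0.13 to 1.17, limma adjusted p = 0.446). Those pairs were uneven: the mean log2 difference was 0.04 in experiment 1 and 1.01 in experiment 2. The largest, 1.70 at 16 h in experiment 2, compared a p25alpha signal of 68.8 with a mock signal of 21.2 that was called absent, while the other 11 arrays ranged up to 83.3. Without that mock array the 16 h value was -0.13 in place of 0.72, and the value over all times was 0.24.

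The remaining tested Cflar probe sets measured -0.19 ± 0.15 (1391811_at) and -0.16 ± 0.31 (1379919_at) over all times (SE, log2, limma adjusted p = 0.610 and 0.845). Among these 4 probe sets 1 estimate was therefore above 0 and 3 were below, none passing. The authors' deposited table calls 1 increase for 1368545_at (12 h, experiment 2, signal log ratio 0.7) and 1 decrease for 1392386_at (16 h, experiment 2, signal log ratio -0.2). The fifth Cflar probe set (1379679_at) was called absent on all 12 arrays, with signals of 7.1 to 37.8.

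Apaf1, the scaffold of the mitochondrial route, was read by 2 probe sets present on all 12 arrays, and both were lower in p25alpha cells in 5 of 6 pairs. The brighter (1369197_at) had mock signals of 172.6, 188 and 170.7 and p25alpha signals of 161.2, 147.5 and 146.4 at 8, 12 and 16 h in experiment 1. In experiment 2 the mock signals were 222.3, 198.4 and 288.9 and the p25alpha signals 216.5, 232.4 and 247.9. Within experiment 1 all 3 p25alpha arrays lay below all 3 mock arrays, and within experiment 2 the arms overlapped. How often all tested probe sets show this, or 5 of 6 pairs one way, was not counted. Neither is read as a result. Over all times the log2 differences were -0.12 ± 0.11 for this probe set and -0.08 ± 0.13 for 1369198_at (SE, limma adjusted p = 0.668 and 0.811). The authors' deposited table calls 1 decrease, for 1369197_at at 12 h in experiment 1 (signal log ratio -0.4).

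Casp9, the initiator caspase that APAF1 activates, was present on all 12 arrays by 1 of its 3 probe sets (1368652_at). Its signals lay between 53.7 and 102.2 (median 96.7) in mock cells and between 58.9 and 114.9 (median 88.25) in p25alpha cells. The arms overlapped, and the difference over all times was 0.01 ± 0.17 (SE, log2, 95% interval -0.39 to 0.41, limma adjusted p = 0.992). The probe sets for the short form and for the CTD isoform of Casp9, as the deposited annotation names them, were called absent on all 12 arrays. Their signals of 2.7 to 18.5 and of 2.1 to 44.6 carry no readable level, so nothing was measured of a shift between Casp9 forms.

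Casp6, the executioner that cuts lamins, was the other member at an unadjusted p under 0.05. In experiment 1 the mock signals were 69.2, 72.5 and 77.9 at 8, 12 and 16 h and the p25alpha signals 115.8, 98.8 and 99.1. In experiment 2 the mock signals were 120.1, 102.9 and 112.5 and the p25alpha signals 114.5, 138.3 and 115.8. The 3 mock arrays of experiment 1 lay below the other 9 arrays, and within experiment 2 the arms overlapped. The share of all tested probe sets with such a separation was not counted, so it is only described. Over all times the log2 difference was 0.32 ± 0.11 (SE, 95% interval 0.05 to 0.59, higher in 5 of 6 pairs, limma adjusted p = 0.291), with 0.51 in experiment 1 and 0.13 in experiment 2. The difference between the experiments was -0.38 ± 0.19 (SE, limma adjusted p = 0.9999). The authors' deposited table gives smaller ratios for experiment 1, with a signal log ratio of -0.1 at 8 h where the deposited signals differ by 0.74, and calls all 6 pairs no change.

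Across all members, the authors' deposited table holds 78 change calls for the 13 tested probe sets in the 6 pairs of p25alpha and mock arrays, of which 74 are no change, 2 are increases and 2 are decreases. Per pair the same table calls between 0.94% and 3.03% of all tested probe sets increased and between 0.24% and 4.30% decreased. No increase or decrease of a member was called in both experiments at the same time. The increases fell on Fas and Cflar, each in 1 experiment at 12 h, and each on a probe set whose partner on the same gene was called no change in that pair.

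In mock cells alone, the levels of the members over time were compared between 16 and 8 h. None of the 13 passed in limma's paired fit, where 0.0% of all tested probe sets did, and 0 of the 13 had an unadjusted p under 0.05 (7.40% of all). The median was 0.05 against -0.02 over all tested probe sets. Fadd (0.42 ± 0.26 SE) and Faslg (0.44 ± 0.32) were the largest on the log2 scale, and Casp8 (-0.30 ± 0.17) was the lowest. The Fadd value rests in part on mock signals of 33.4 and 54 in experiment 2, called absent at 8 and 16 h. That of Faslg rests in part on a mock signal of 6.6 at 8 h in experiment 1, also called absent. The lowest adjusted p of the 13 was 0.747, that of Casp8.

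Some members also differed between the experiments, while Casp8 measured 0.11 ± 0.10 for experiment 2 against experiment 1 (SE, log2, limma adjusted p = 0.379). In the paired fit the experiment term passed for 6 of 13 member probe sets, Fadd among them, where 51.0% of all tested probe sets did, so the share of members is near the background. The direction was higher in experiment 2 for 5 probe sets of 4 genes (29.4% of all) and lower for 1, that of Fadd (21.6%). The Fadd probe set was kept only through its present calls in experiment 1 and had 0 in experiment 2, so it had to differ, and its lower level is given only by the signals above. Higher in experiment 2, in log2 differences ± SE from limma, were Faslg (0.93 ± 0.18, adjusted p = 0.00578), the brighter Fas probe set (0.57 ± 0.09, adjusted p = 0.00232), both Apaf1 probe sets (0.51 ± 0.11 and 0.68 ± 0.13, adjusted p = 0.00843 and 0.00434) and Casp6 (0.42 ± 0.11, adjusted p = 0.0194). The call of Casp6 ended without any single array of the 12 or 16 h mock groups or of the 12 h p25alpha group (adjusted p from 0.0508 to 0.0524) and with no filter on dim probe sets (0.0515). For Fadd, the brighter Fas probe set and both Apaf1 probe sets the 6 arrays of one experiment did not overlap with the 6 of the other, which held for 28.9% of all tested probe sets. A count of 4 of 13 is near that background. For these 4 probe sets the log2 difference between the experiments was larger in size than the p25alpha difference of any of their pairs. Picking them by non-overlap favours such a result, and Fadd passed the filter only through experiment 1. It is therefore a description and not a test.

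**Figure D3:**
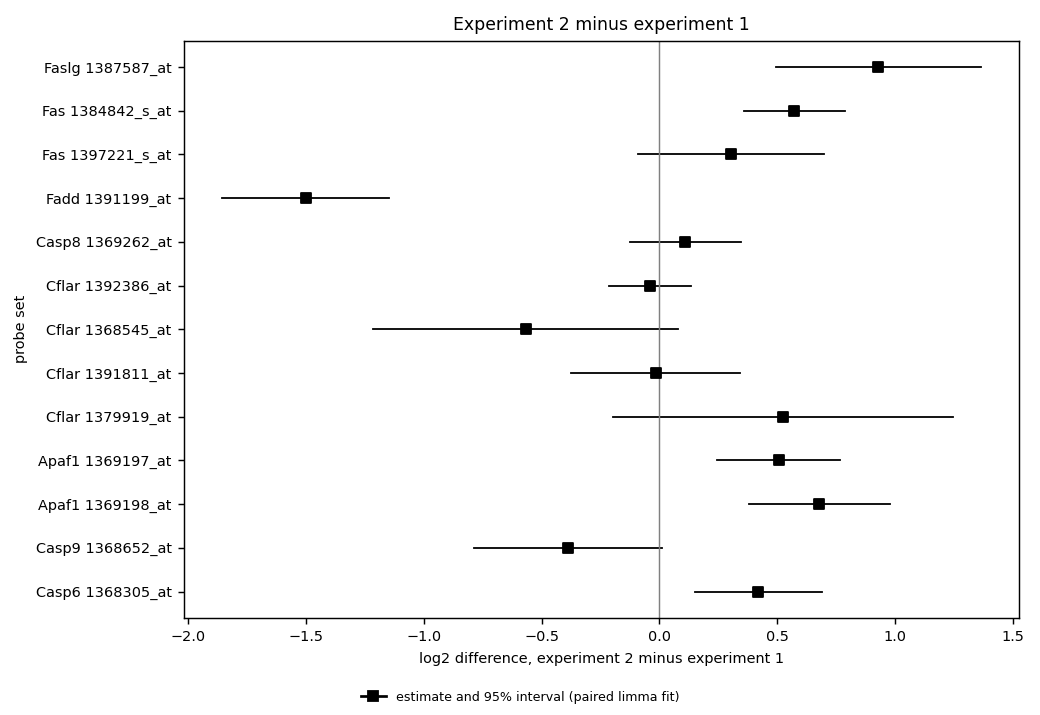
Log2 difference between experiment 2 and experiment 1 (x axis) for each tested probe set (y axis), with squares for the paired limma estimate over 6 arrays of each experiment and bars for its 95% interval. Fadd lies below 0 with no present call in experiment 2, and Faslg, the brighter Fas probe set, both Apaf1 probe sets and Casp6 lie above 0 with intervals that exclude it.

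The 3′ to 5′ ratio of the actin control, a reading of RNA quality, also separated the experiments. It was 2.14 to 3.12 on the arrays of experiment 1 and 4.65 to 7.05 on those of experiment 2. For GAPDH the ranges overlapped, at 0.969 to 1.09 and 0.898 to 1.03, so the controls differ on this. The actin ranges do not overlap, so RNA quality as read from actin and experiment cannot be told apart here. Per array 49.3% to 55.2% of the probe sets were called present. No probe set was found under Tppp or its synonyms, so the p25alpha transcript was not checked. Of 11 oligodendrocyte lineage markers 9 were present on at least 11 arrays, while Olig2 was present on none. Present on at least 11 arrays were also 2 of 6 neuron, 2 of 5 astrocyte, 3 of 5 fibroblast and smooth muscle and 0 of 5 microglia and macrophage markers.

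Further genes of the death receptor and caspase routes were read as 56 genes in 6 lists, 48 of which had a tested probe set. None of their 64 tested probe sets passed over all times in limma's paired fit (0.239% of all tested probe sets did), and none passed at a single time. At an unadjusted p under 0.05 there were 13, with 10 higher and 3 lower, or 20.3% beside 14.0% of all tested probe sets. The median difference was 0.005 on the log2 scale, beside 0.013 over all tested probe sets.

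Among the other receptors and ligands 0 of 6 tested probe sets passed. The highest was the TNF receptor gene Tnfrsf1a at 0.42 ± 0.12 (SE, log2, limma adjusted p = 0.209) and the lowest was Ngfr, the p75 neurotrophin receptor, at -0.23 ± 0.23. Among the adaptors and modulators 0 of 16 passed. The extremes were Casp8ap2, which encodes a protein that binds caspase 8, at 0.82 ± 0.49 (1381101_at, present on 3 arrays) and the kinase gene Hipk3 at -0.54 ± 0.29. The other tested Casp8ap2 probe sets, each present on all 12 arrays, measured -0.15 ± 0.19, 0.24 ± 0.09 and -0.03 ± 0.10. Of the other caspases 0 of 10 probe sets passed, from 0.42 ± 0.15 for Casp4, an inflammatory caspase, to -0.46 ± 0.63 for Casp1, which was present on 2 arrays.

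On the mitochondrial side 0 of 13 probe sets passed, from 0.48 ± 0.35 for Bid, which links caspase 8 to mitochondria, to -0.22 ± 0.30 for Bcl2 (SE, log2). Bid was present on only 4 of the 12 arrays and Bcl2 on 2, so these extremes rest mostly on signals not called present. Of the 4 caspase inhibitor probe sets 0 passed, with Birc3 at 0.87 ± 0.41 (present on 4 arrays) and Birc5 at -0.30 ± 0.07 (limma adjusted p = 0.181). Of the 15 probe sets for caspase substrates and effectors 0 passed, from 0.20 ± 0.15 for Rock1 (1368932_at, present on 9 arrays) to -0.23 ± 0.08 for Parp1. Parp1 encodes a DNA repair enzyme that caspases cut. The brighter Rock1 probe set (1373878_at), present on all 12 arrays, measured -0.03 ± 0.09.

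Transcripts with the most similar profile over the 12 arrays were taken as the 3 highest Pearson correlations of log2 signals, as deviations from the mean of their experiment, among tested probe sets with 1 gene symbol. For the brighter Fas probe set these were Enpp5 (0.84), Map2 (0.83) and Ubqln2 (0.82), with a median of -0.04 over all such probe sets. For Faslg they were Vkorc1 (0.94), E2f1 (0.92) and Grin2c (0.92), with a median of 0.01. Faslg and the brighter Fas probe set correlated at -0.05. The arrays share experiments and labelling, so these are descriptions, and none of the 6 transcripts passed for p25alpha over all times (limma adjusted p from 0.132 to 0.824).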

How the data were processed

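Total RNA (RNeasy Mini kit) was hybridised as biotinylated cRNA, per the labels' protocols. The authors deposited each array's intensity as a linear MAS5 signal, per the submitters' processing notes and the file headers, with a 2% trimmed mean of 150.1 on every array. Per the file headers they also deposited detection calls, change calls and signal log ratios, which are on a log2 scale. Intensities in the other deposited table differed by at most 0.5 and were only compared. Symbols were updated through RefSeq (GRCr8).

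Signals were floored at 0.1 and log2 was taken, without 57 Affymetrix controls. The model was limma 3.58.1 (R 4.3.3) with 6 group means and the experiment as a block (5 residual degrees of freedom). The titles' numbers pair the arrays, since arrays with the same number deviated together (correlations of 0.471 to 0.569 in the 15 group pairs). Alternatives were no block, quantile normalization, median centring, no filter, a filter on the median signal, an offset of 50 and each array left out in turn. Each experiment alone and the p25alpha by experiment term were chosen after seeing the data. Scripts were tested on simulated data.

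Named genes were all member probe sets, per pathway list the highest and lowest probe set over all times and any that passed, and 3 profile neighbours of Fas and of Faslg. Egr1, Nfkbia and the cell type markers named were chosen outside this rule after their values were seen. The members and lists were chosen with earlier results of these data known.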

Additional observations from a re-analysis of the deposited data

Results flagged for a closer look

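The brighter Fas probe set (1384842_s_at) had all 3 pairs of experiment 1 above 0 and all 3 pairs of experiment 2 below 0, and the p25alpha difference of experiment 2 minus that of experiment 1 was -0.303 on the log2 scale, which did not pass the test of the difference (limma adjusted p = 0.9999). For Casp8 both pairs at 16 h lay above 0 and both pairs at 8 h and at 12 h below 0. The difference between times was 0.24 for 16 against 8 h and 0.213 for 16 against 12 h. For Cflar 1379919_at both pairs at 8 h lay above 0 (0.03 and 0.04) and both pairs at 12 and 16 h below, at -0.438 for 12 against 8 h and -0.156 for 16 against 8 h. This probe set was present on 9 of the 12 arrays. The 8 h p25alpha array of experiment 2 and both 16 h arrays of experiment 1 were called absent. The moderated F-test over the 3 times gave limma adjusted p = 0.9989 for both genes. Opposite pairs like those of Fas held for 2.32% of all tested probe sets. How often they show the sign patterns of Casp8 and Cflar over time was not counted.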

How the results depend on the processing

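No member probe set was called for p25alpha against mock, for its change over time or for mock 16 against 8 h under any alternative run, with the replicate block or without it. Of 1357 member values under alternatives 86 changed sign, all of them values that were not called. In the experiment comparison 6 member probe sets were called, against 2 with a filter at the median signal, which leaves fewer members tested, 5 with no filter (Casp6 lost), 8 with an offset of 50 (Cflar 1368545_at and Casp9 gained, adjusted p 0.0301 and 0.0296) and 5 to 6 without a single array. Over all probe sets, the paired fit called 46 for p25alpha over all times, against 4 with no block, 17 with no filter, 357 with the median filter, 466 with an offset of 50, 0 within either experiment and 12 to 33 without a single array. At 8 h it called 0, against 10 with the median filter, 11 with the offset and 0 to 3 without a single array. At 12 h it called 11, against 2 with no block, 0 with no filter, 46 with the median filter, 59 with the offset and 0 to 10 without a single array. At 16 h it called 11, against 0 with no block, 0 with no filter, 52 with the median filter, 75 with the offset and 0 to 30 without a single array. For the difference between times the counts were 0, 1 with the offset and 0 to 5 without a single array. For mock 16 against 8 h they were 0, 50 with the median filter, 77 with the offset and 0 to 11 without a single array. Between experiments they were 9814, 6422 with the median filter and 8605 to 8872 without a single array. With the offset the Faslg difference was 0.211 in place of 0.762, and its adjusted p 0.128. Signals not called present limit what can be read of Fadd in experiment 2 and of Faslg in mock cells.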
